A study of Homo sapiens with 54 samples.

Results

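The response of HepG2 cells to 3 h of tumour necrosis factor (TNF-α) was measured by setting the 3 TNF 3 h libraries against the 3 IL-10 3 h libraries of the same line. These 6 libraries were identified by their labels, from 54 libraries in the series and 27 of HepG2. The comparison itself was chosen with earlier results of these data known. HepG2 is an established human liver cancer line. The TNF group received 100 ng/mL TNF-α for 3 h and the comparison group 50 ng/mL IL-10 for 3 h, so that both had an added cytokine and the same time in culture. The IL-10 dose is given in the design text only. All were cells of 1 line, with no genetic change in the labels, plated in 6-well plates in DMEM with serum and antibiotics. The study also holds HCT116, a colon cancer line, with the same agents (IL-6, TNF-α, IL-10 and the kinase inhibitor Torin1 at 3 h and 6 h) and medium-treated controls called NC, and its text names TIMP1, TIMP2, MMP genes and EGF as genes of interest. Groups of 3 are described there as biological replicates. Separate cultures are not stated, so p-values reflect only library-to-library spread, possibly technical.

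TNF binds TNFR1, and the receptor recruits adaptor proteins, ubiquitin ligases and the IKK kinases. IKK marks the inhibitory IkB proteins for destruction, which lets NF-kB dimers enter the nucleus and switch on genes for chemokines, adhesion molecules, survival proteins and their own inhibitors. In hepatocytes this pathway belongs to the acute phase response to infection and injury. IL-10 is a cytokine that acts mainly on leukocytes through a receptor made of IL10RA and IL10RB.

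The 27 HepG2 libraries held 46.3 M to 93.7 M recovered reads, the TNF 3 h libraries 53.7 M to 62.8 M and the IL-10 3 h libraries 52.9 M to 70.4 M. The 13 mitochondrially encoded protein genes took 7.10% to 8.54% of the reads over all HepG2 libraries. Hepatocyte products marked the line: ALB, the serum albumin gene, stood at 7776 to 8679 FPKM (fragments normalised for transcript length and library size) in the 6 libraries. Of 14 hepatocyte markers 1, APOB, was under 1 FPKM in all 6 and at most 0.238 FPKM in any HepG2 library. Whether this APOB value is a failed estimate was not tested. Of 14 blood cell markers 10 stayed under 1 FPKM, among them PTPRC, CD3E, TYROBP and HBB, which were listed at 0. The summed level of that list was 1285 to 1392 FPKM with TNF and 1364 to 1476 with IL-10, nearly all from LYZ. Of 14 fibroblast and endothelial markers 13 were under 1 FPKM, and of 13 colon markers 10. IL10RA was listed at 0 in the 6 libraries and IL10RB averaged 0.0257 ± 0.0144 FPKM (SD, n = 3) in the IL-10 group.

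Upstream sequences are shown for the 5 CXC chemokine genes of 1 cluster on chromosome 4 and for BIRC3, TNFAIP3, NFKBIA and ICAM1, all of which rose at least 2-fold and hold a match to an NF-kB pattern, so that the letters can be read beside the response. They are the 250 bases upstream of 1 RefSeq start per gene (GRCh38.p14), 5′ to 3′ on the gene's strand. Capitals mark a match, on either strand, to the short κB pattern GGNNNTTCC or to the published NF-kB consensus of 10 bases, and the 2 patterns overlap. The chemokine intervals are CXCL8 at chr4:73740319-73740568 on the plus strand, CXCL1 at chr4:73869143-73869392 on the plus strand, CXCL5 at chr4:73998678-73998927 on the minus strand, CXCL3 at chr4:74038690-74038939 on the minus strand, CXCL2 at chr4:74099196-74099445 on the minus strand. The other intervals are BIRC3 at chr11:102317234-102317483 on the plus strand, TNFAIP3 at chr6:137867009-137867258 on the plus strand, NFKBIA at chr14:35404750-35404999 on the minus strand, ICAM1 at chr19:10270870-10271119 on the plus strand.
CXCL8: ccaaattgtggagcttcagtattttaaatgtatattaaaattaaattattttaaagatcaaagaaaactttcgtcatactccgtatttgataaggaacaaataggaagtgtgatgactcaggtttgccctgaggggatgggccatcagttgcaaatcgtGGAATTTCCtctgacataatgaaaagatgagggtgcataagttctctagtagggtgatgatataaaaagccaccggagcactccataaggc
CXCL1: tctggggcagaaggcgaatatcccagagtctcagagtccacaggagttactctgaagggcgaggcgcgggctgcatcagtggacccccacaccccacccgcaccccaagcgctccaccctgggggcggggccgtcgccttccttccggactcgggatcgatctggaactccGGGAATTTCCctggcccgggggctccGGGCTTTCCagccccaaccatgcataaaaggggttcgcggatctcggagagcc
CXCL5: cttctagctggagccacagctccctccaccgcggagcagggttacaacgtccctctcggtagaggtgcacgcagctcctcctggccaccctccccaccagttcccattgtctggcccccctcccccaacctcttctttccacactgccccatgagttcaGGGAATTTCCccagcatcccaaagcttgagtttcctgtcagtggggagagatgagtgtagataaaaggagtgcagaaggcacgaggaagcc
CXCL3: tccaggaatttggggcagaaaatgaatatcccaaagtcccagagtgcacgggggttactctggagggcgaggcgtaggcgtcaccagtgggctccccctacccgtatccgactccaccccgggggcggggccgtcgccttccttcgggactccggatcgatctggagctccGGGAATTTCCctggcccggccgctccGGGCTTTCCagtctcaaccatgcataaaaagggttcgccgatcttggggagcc
CXCL2: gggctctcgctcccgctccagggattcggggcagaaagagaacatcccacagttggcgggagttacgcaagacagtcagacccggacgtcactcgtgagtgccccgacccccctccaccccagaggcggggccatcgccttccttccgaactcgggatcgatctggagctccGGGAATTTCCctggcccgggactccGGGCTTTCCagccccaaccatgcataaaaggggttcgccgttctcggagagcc
BIRC3: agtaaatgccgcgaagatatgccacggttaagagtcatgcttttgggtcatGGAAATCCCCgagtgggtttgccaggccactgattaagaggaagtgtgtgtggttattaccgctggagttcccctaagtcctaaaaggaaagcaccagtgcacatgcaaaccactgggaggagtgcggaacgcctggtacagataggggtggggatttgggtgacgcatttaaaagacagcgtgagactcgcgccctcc
TNFAIP3: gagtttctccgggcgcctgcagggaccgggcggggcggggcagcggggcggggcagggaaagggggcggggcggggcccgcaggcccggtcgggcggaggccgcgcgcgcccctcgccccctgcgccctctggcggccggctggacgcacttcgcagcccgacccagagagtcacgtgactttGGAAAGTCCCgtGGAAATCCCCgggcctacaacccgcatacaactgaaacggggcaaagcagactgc
NFKBIA: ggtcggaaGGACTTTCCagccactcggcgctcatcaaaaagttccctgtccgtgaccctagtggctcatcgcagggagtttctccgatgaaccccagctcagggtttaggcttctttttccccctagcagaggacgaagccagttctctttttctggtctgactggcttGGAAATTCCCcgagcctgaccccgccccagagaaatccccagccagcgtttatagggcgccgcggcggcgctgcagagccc
ICAM1: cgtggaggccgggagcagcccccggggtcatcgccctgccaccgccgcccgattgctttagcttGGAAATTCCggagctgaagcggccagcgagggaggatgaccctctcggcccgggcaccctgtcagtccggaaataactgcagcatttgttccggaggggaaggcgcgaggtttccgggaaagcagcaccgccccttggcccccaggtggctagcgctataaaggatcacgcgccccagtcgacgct

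The promoters of CXCL1, CXCL2 and CXCL3 share the run GGGAATTTCC, which starts 79, 78 and 79 bases before the start site, and a second match, GGGCTTTCC, which starts 53 bases before it in all 3. CXCL5 carries GGGAATTTCC 91 bases and CXCL8 GGAATTTCC 91 bases before the start. The 5 genes lie within 358.6 kb, between CXCL8 and CXCL2. Other CXC genes of the same stretch, PF4, PF4V1 and PPBP, were listed at 0 in the 6 libraries, and CXCL6 reached at most 0.0526 FPKM.

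All 22 genes that rose at least 2-fold on the log2(FPKM + 1) scale and have a single table entry had a promoter in the RefSeq table, taken as 250 bases before to 50 after the start. Of these, 14 (63.6%) hold either pattern, against 27.6% of 8396 promoters of tested genes and 23.5% of all 27305 promoters. CXCL1, CXCL2, CXCL3, CXCL5 and CXCL8, which belong to 1 gene cluster, are among the 14 and are not independent cases. The share with either pattern was 38.2% for genes that rose by a log2 of 0.5 to 1, 31.9% for smaller rises and 25.5% for genes that fell. Only 68 of 92, 814 of 990 and 542 of 680 genes of these sets had a promoter in the RefSeq table. The short pattern alone is in 59.1% of the 22 and 20.1% of all promoters, and the consensus in 40.9% and 7.41%. FSTL3, PLAU, GATA6, SGK1, TIFA, CD83, SOD2 and LINC02015 have no match in this window. Only 1 start per gene was searched, and for PLAU, SOD2 and TNFAIP3 it lies inside the annotated gene. The patterns were chosen after these genes were known, and no test was made.

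Of 11280 genes tested, 1817 (16.1%) differed at a limma adjusted p under 0.05 (Benjamini-Hochberg). TNF was higher for 1133 (10%) and lower for 684 (6.06%), and the median over all genes tested was a log2 of -0.0039. These shares stand beside each count of list members that follows. Most differences were small, since 1668 of the 1817 had an absolute log2 under 0.5. A rise of at least 2-fold was found for 25 genes (0.222%) and such a fall for 6 (0.0532%), of which 22 and 5 have no second table entry. The 3 TNF libraries lay wholly above the 3 IL-10 libraries for 1880 genes (16.7%) and wholly below for 1583 (14%). With libraries scaled to total recovered reads, 887 genes were higher and 988 lower, so the split between the directions depends on the scaling. A fit to the 6 libraries alone called 567 higher and 255 lower.

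**Figure D1:**
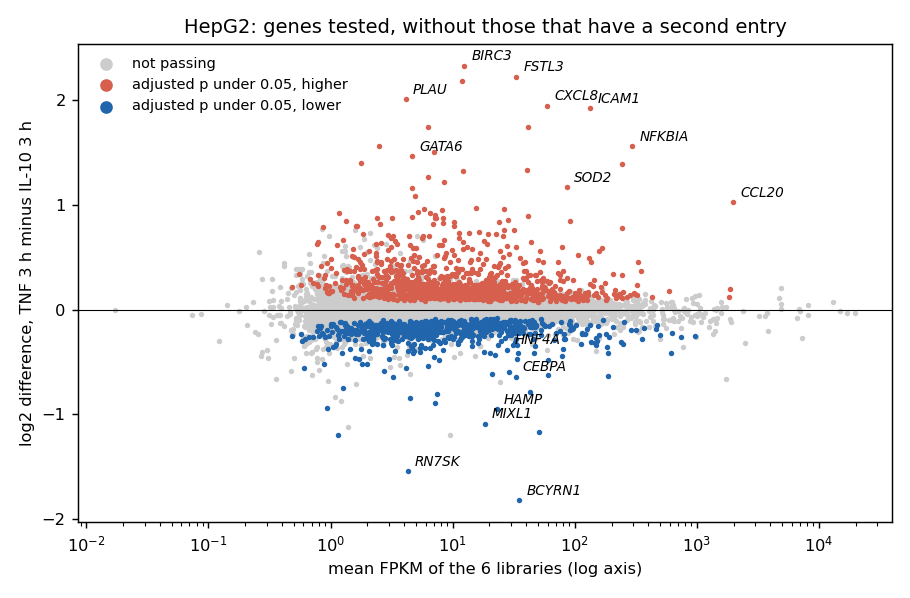
Each point is a tested gene with a single table entry, with its mean FPKM in the 6 libraries on a log axis and the log2 difference of TNF 3 h minus IL-10 3 h on log2(FPKM + 1). Points past a limma adjusted p of 0.05 are red (higher) or blue (lower). The tallest rise is BIRC3 at 2.32 and the deepest fall BCYRN1 at -1.82.

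Of 31 chemokine genes, 8 passed the filter of 1 FPKM in 3 libraries, and 7 of these rose and none fell, with a median log2 of 1.53. CXCL5 was under 1 FPKM in the 3 IL-10 libraries and passed through TNF and IL-6 libraries. Without the filter 20 chemokines were tested, 8 rose and the median was 0.04. CXCL8, the neutrophil attractant interleukin-8, was at 96.5, 103 and 86.1 FPKM in the 3 TNF libraries and 25.9, 26.3 and 20.3 FPKM in the 3 IL-10 libraries. Every TNF library was above every IL-10 library, a log2 difference of 1.94 (SE 0.14) and a limma adjusted p of 1.43e-09. CXCL3, which acts on the same receptor family, was at 21.5, 20.7 and 18.5 FPKM with TNF and 3.76, 4.20 and 3.15 with IL-10, log2 2.18 (SE 0.10), adjusted p 2.04e-12 by limma. This was the largest rise among chemokines on log2(FPKM + 1), with a 5.46-fold ratio of mean FPKM. By that ratio CXCL5 rose slightly more, 5.53-fold.

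CXCL1 was at 10.5, 10.6 and 9.46 FPKM against 2.23, 3.01 and 1.91, CXCL2 at 11.9, 10.97 and 9.65 against 3.12, 4.11 and 2.43, and CXCL5 at 4.76, 3.51 and 4.37 against 0.749, 0.882 and 0.657. All 3 groups of TNF libraries stood clear of IL-10, with log2 differences of 1.74, 1.502 and 1.56. CCL20, which attracts CCR6-bearing lymphocytes and dendritic cells, had by far the highest FPKM of these genes: 2778, 2624 and 2529.6 with TNF and 1380.2, 1350.2 and 1179 with IL-10. No TNF library was below an IL-10 library, and the log2 difference was 1.02 (SE 0.09) with a limma adjusted p of 2.10e-08. CX3CL1, a membrane-bound chemokine, averaged 40.3 ± 0.970 against 23.5 ± 2.34 FPKM (SD, n = 3) and rose.

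**Figure D2:**
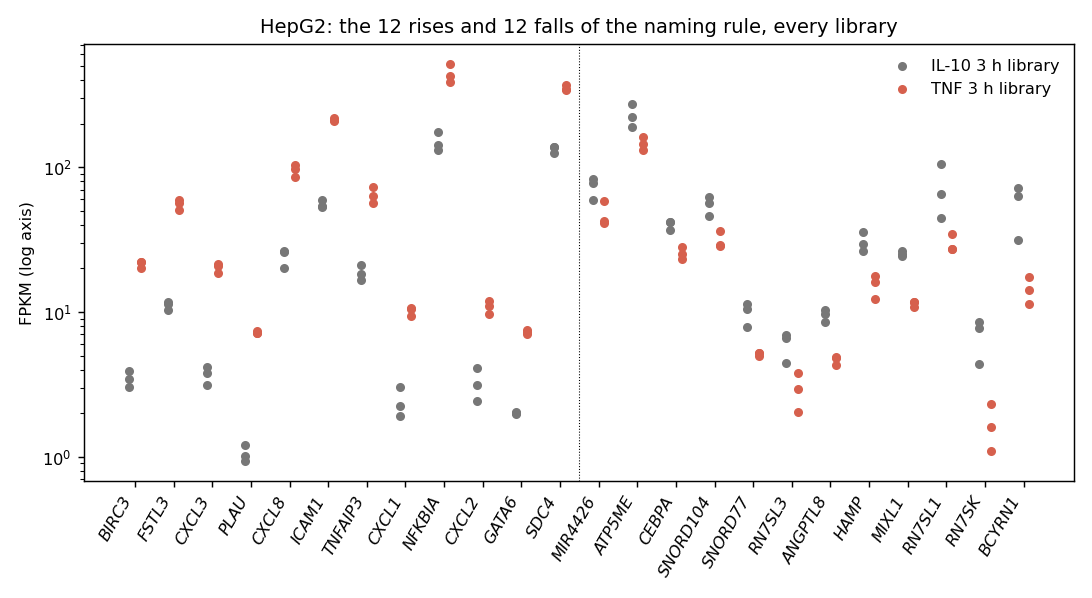
FPKM on a log axis in each of the 3 TNF 3 h (red) and 3 IL-10 3 h (grey) HepG2 libraries for the 12 largest rises and, right of the dotted line, the 12 largest falls of the naming rule, in order of their log2 difference. The rule required libraries that do not overlap, and BIRC3 and BCYRN1 have the largest mean differences, up and down, on the log2(FPKM + 1) scale.

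Inhibitors and subunits of NF-kB rose together. Of 15 tested members of the list of subunits, IkB proteins and IKK kinases, 11 rose and none fell (median log2 0.59). NFKBIA, the IkB protein that holds NF-kB in the cytoplasm, was at 429, 516 and 385 FPKM with TNF and 143, 175 and 132 with IL-10. The lowest TNF library was above the highest IL-10 library, with a log2 of 1.56 (SE 0.11) (limma adjusted p 1.53e-09). Further inhibitors and atypical IkB proteins rose by less: BCL3 by 0.90, NFKBIE by 0.84 and NFKBIZ by 0.82.

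Among the subunits, NFKB2 was at 36.6, 34.1 and 34.7 FPKM against 16.8, 18.2 and 17.9, RELB at 11.5, 11.5 and 10.2 against 5.07, 6.02 and 4.72 and NFKB1 at 36.1, 36.7 and 36.9 against 19.6, 20.2 and 19.6. These precursor and partner subunits of the dimers all separated the groups, with log2 of 0.95, 0.95 and 0.85. REL rose by 0.50 and RELA, the main activating subunit, by 0.22 (limma adjusted p 0.00136). Of the kinases, IKBKE rose by 0.59, while CHUK (0.02, adjusted p 0.676 by limma), IKBKB (0.05, 0.647), IKBKG (-0.09, 0.469) and the adaptor TANK (adjusted p 0.981) did not pass.

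In the TNF receptor complex and its ubiquitin regulators, 15 of 29 tested genes rose and 2 fell (median log2 0.14). BIRC3, a ubiquitin ligase (cIAP2) bound to the receptor complex, had the largest rise of all named genes on log2(FPKM + 1). It went from 3.91, 3.45 and 3.06 FPKM with IL-10 to 22.1, 19.98 and 21.99 with TNF. Its ratio of mean FPKM was 6.15, below the 6.88 of PLAU. The groups were far apart, with a log2 of 2.32 (SE 0.09) and a limma adjusted p of 5.83e-14. TNFAIP3 (A20), an enzyme that removes ubiquitin chains and ends NF-kB signalling, was at 63.3, 73.4 and 56.8 FPKM with TNF and 18.2, 21.2 and 16.6 with IL-10, log2 1.74 (SE 0.08), with no overlap. CYLD, another deubiquitinase, rose by 0.62, the kinase gene MAP3K8 by 0.68 and the RNase gene ZC3H12A by 0.61.

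The receptor TNFRSF1A itself fell slightly, from 29.3, 29.7 and 29.7 FPKM with IL-10 to 26.3, 26.5 and 27.6 with TNF. The 3 TNF libraries were all below, and the log2 difference was -0.14 (limma adjusted p 0.0061). TNFRSF1B, the second receptor, reached at most 0.00707 FPKM in any HepG2 library and was not tested, and TNF was listed at 0 in the 6 libraries. Of 13 tested ligands and receptors of the superfamily, 2 rose and 2 fell, beside 10% and 6.06% of all genes tested. In the fit of the 6 libraries alone 1 rose and 0 fell. The calls of TNFRSF11A (higher) and of TNFSF10 and TNFRSF19 (lower) were lost in 9, 7 and 4 alternative runs. TNFRSF10B, a receptor for the death ligand TRAIL, rose by 0.37 (90.2, 88.2 and 90.5 against 67.9, 71.5 and 68.5 FPKM).

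**Figure D3:**
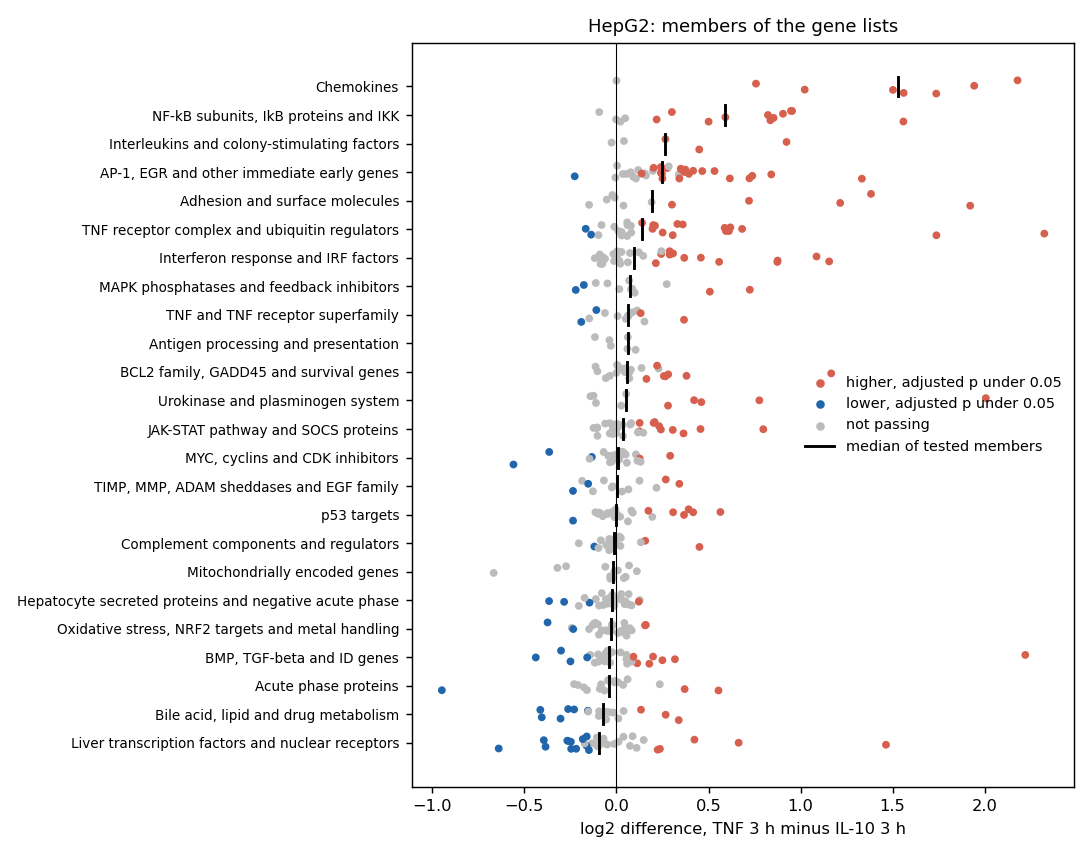
Log2 difference of TNF 3 h minus IL-10 3 h for each tested member of 24 gene lists, with red and blue for genes past a limma adjusted p of 0.05, grey for the others and a bar for the median. Points of genes that have a second table entry are left out, although the medians include them, and vertical scatter within a row has no meaning. The medians drawn include 1.53 for the 8 chemokines that passed the filter of 1 FPKM, 0.59 for the NF-kB list and -0.09 for liver transcription factors; without the filter they were 0.04, 0.55 and -0.06.

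Of 11 tested adhesion and surface genes 5 rose and none fell, 3 of them at least 2-fold. ICAM1, the ligand of leukocyte integrins, was at 211, 209.9 and 218 FPKM with TNF and 53.5, 59.1 and 53.9 with IL-10. Both groups were tight and far apart, with a log2 of 1.92 (SE 0.07) and a limma adjusted p of 1.37e-14. SDC4, a heparan sulfate proteoglycan, was at 367, 341 and 346 against 138, 138 and 126 FPKM (log2 1.38), and CD83 at 13.01, 12.01 and 11.7 against 4.96, 4.38 and 4.77 (log2 1.22). F3, the tissue factor gene that starts coagulation, rose by 0.72.

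Some secreted and regulatory genes outside the lists above also rose at least 2-fold. FSTL3, which binds and blocks activins, was at 59.3, 50.7 and 56.5 FPKM with TNF and 11.7, 11.3 and 10.4 with IL-10, log2 2.22 (SE 0.10) and limma adjusted p 5.04e-13. It was the largest of 7 rises, beside 4 falls, among 29 tested BMP, TGF-beta and ID genes. Over all genes tested 10% rose and 6.06% fell. PLAU, the urokinase plasminogen activator, was at 7.34, 7.13 and 7.17 against 0.931, 1.20 and 1.01 FPKM, a ratio of means of 6.88 and a log2 of 2.01. It led the urokinase and plasminogen list, in which 5 of 11 tested genes rose and none fell.

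GATA6, a transcription factor of the foregut and liver, was at 7.33, 7.48 and 7.06 FPKM with TNF and 2.04, 2.01 and 1.97 with IL-10. The libraries of a group lay close together and the groups far apart, with a log2 of 1.46 (SE 0.04) and a limma adjusted p of 1.30e-15. SOD2, the mitochondrial superoxide dismutase, was at 121, 121 and 117 against 54.8, 53.99 and 50.1 FPKM (log2 1.17), and SGK1, a serum and glucocorticoid regulated kinase, at 59.7, 62.3 and 54.7 against 22.6, 25.9 and 20.1 (log2 1.33). In the list of BCL2 family and survival genes that holds SOD2, 7 of 24 tested genes rose and none fell. The anti-apoptotic MCL1 rose by 0.26 and the pro-apoptotic BBC3 and PMAIP1 by 0.38 and 0.27, so that both kinds are among the 7.

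Of 34 tested interferon response genes and IRF factors 13 rose and none fell (median log2 0.10). IRF1, a transcription factor of that response, was at 6.69, 7.57 and 6.24 FPKM with TNF and 2.52, 2.63 and 2.38 with IL-10 (log2 1.16), and the GTPase gene GBP1 at 6.76, 6.98 and 7.22 against 2.90, 3.30 and 2.17 (log2 1.09). Both separated the groups. Receptor chains for interferons were among the rises, IFNAR2 by 0.88 and IFNGR1 by 0.56. Of 25 listed antigen presentation genes only 10 were tested. Of these, 0 passed in limma, 2 had an unadjusted p under 0.05, and voom on the recovered reads called 0. The largest difference among the 10, a log2 of 2.25, did not pass. With second-entry genes left out, 6 were tested and 0 passed. HLA-B, HLA-C and TAP1 were not tested and reached at most 0.146, 0.0788 and 0.0306 FPKM in any HepG2 library. Whether these low values are failed estimates was not tested. Of 32 JAK-STAT genes 10 rose and none fell, STAT5A by 0.80 and SOCS6 by 0.46. STAT5A was at 0.925, 0.884 and 0.902 FPKM with IL-10 and 2.52, 2.21 and 2.21 with TNF. Of these 6 libraries only those with TNF reached the filter of 1 FPKM for it. Without the filter 37 JAK-STAT genes were tested, 9 rose and 0 fell.

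Immediate early genes moved as a broad group of modest rises, 21 of 36 tested against 1 fall (median log2 0.25). KLF6 rose by 0.84, JUNB, a subunit of AP-1, by 0.74, MAFF by 0.72 and ATF3 by 0.62. In IL-10 3 h against NC, 30 of these 36 genes were themselves higher (7.17% of all genes tested). The growth factor CSF1, which feeds macrophages, led the interleukins and colony-stimulating factors at 8.84, 8.97 and 8.90 FPKM against 3.77, 4.82 and 4.12 (log2 0.92), where 3 of 5 rose. IL32 rose by 0.45.

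Of 36 tested liver transcription factors and nuclear receptors, 12 fell and 6 rose (median log2 -0.09). The imbalance was not tested, and it depended on the setting: 6 fell and 5 rose in the fit of the 6 libraries alone, 7 and 6 without IL-10 replicate 3, and 10 and 10 with NC as the control. CEBPA, a factor that maintains hepatocyte differentiation, was at 24.97, 27.9 and 23.3 FPKM with TNF and 37.01, 41.7 and 41.5 with IL-10. All TNF libraries were below all IL-10 libraries, with a log2 of -0.64 (SE 0.06) and a limma adjusted p of 1.07e-07. HNF4A, a master regulator of liver genes, was at 23.8, 24.2 and 24.6 against 29.1, 32.5 and 34.2 FPKM (log2 -0.38), and NR2F2 fell by 0.39. CEBPD, the C/EBP member known for the acute phase, rose by 0.66 and PROX1 by 0.42.

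HAMP, the gene of the iron hormone hepcidin, was at 12.2, 17.7 and 16.1 FPKM with TNF and 29.2, 26.5 and 35.5 with IL-10. It fell by 0.95 on the log2 scale (SE 0.12, limma adjusted p 5.33e-06). This was the only fall among 19 tested acute phase genes, of which 3 rose and 15 did not pass. Over all genes tested 10% rose and 6.06% fell. SERPINA3, an acute phase protease inhibitor, rose, with 192, 178 and 191 against 128, 124 and 129.7 FPKM (log2 0.55). SAA1 was listed at 0 in the 6 libraries. LCN2 averaged 0.0708 ± 0.0696 with TNF and 0.104 ± 0.0381 FPKM with IL-10 (SD, n = 3), both under 1 FPKM.

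ANGPTL8, a liver hormone that regulates lipoprotein lipase, was at 4.82, 4.34 and 4.93 FPKM with TNF and 10.4, 8.60 and 9.74 with IL-10, and MIXL1, an embryonic homeobox gene, at 11.7, 11.7 and 10.8 against 25.2, 26.2 and 24.5. Both fell with no overlap, log2 -0.89 and -1.09. Of 20 bile acid, lipid and drug metabolism genes 6 fell and 3 rose, beside 6.06% and 10% of all genes tested. NR0B2 (SHP), the bile acid repressor, fell by 0.41 and CYP1A1, a drug-metabolising enzyme, by 0.41. The NR0B2 call was lost with NC as the control (limma adjusted p 0.102). CYP7A1, the rate-limiting enzyme of bile acid synthesis, was at 1.63, 1.63 and 1.95 against 2.41, 2.01 and 2.73 FPKM (log2 -0.30), and leaving out IL-10 replicate 3 ended this call (-0.23, with a limma adjusted p of 0.0632), as did the fit of the 6 libraries alone (0.0879) and NC as the control (-0.09, 0.406). Of 30 secreted hepatocyte products 3 fell, 1 rose and 26 did not pass, beside 9463 of all 11280 genes that did not pass.

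The growth regulators BMP4 and MYCN also fell, BMP4 from 25.2, 26.96 and 25.7 FPKM with IL-10 to 18.8, 20.1 and 17.7 with TNF (log2 -0.44) and MYCN by 0.56. ID1, a target of BMP signalling, fell by 0.30, a call lost in the fit of the 6 libraries alone (limma adjusted p 0.0657) and with NC as the control. The iron exporter SLC40A1 fell by 0.23 and the metallothionein MT1X by 0.37. Of 24 tested p53 targets 6 rose and 1 fell, beside 10% and 6.06% of all genes tested. Of 13 mitochondrially encoded genes 0 passed in limma, 3 had an unadjusted p under 0.05, and voom on the recovered reads called 1.

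Short noncoding RNAs made the deepest falls. BCYRN1, a brain cytoplasmic RNA made by RNA polymerase III, was at 11.3, 14.2 and 17.5 FPKM with TNF and 31.5, 63.6 and 71.5 with IL-10, log2 -1.82 (SE 0.27) and limma adjusted p 5.91e-05. RN7SK, which holds the elongation factor P-TEFb, was at 1.10, 1.605 and 2.32 against 4.36, 8.54 and 7.76 FPKM (log2 -1.54). With NC as the control neither fall passed. Against NC, BCYRN1 with TNF differed by a log2 of 0.31 (limma adjusted p 0.452) and RN7SK by -0.17 (0.681), while IL-10 itself stood above NC by 2.13 and 1.37.

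The sum of 10 polymerase III RNAs was 45.4 to 51.0 FPKM in the TNF libraries, 130 to 150.5 in the IL-10 libraries and 49.2 to 115 in NC. It was 27.5 to 41.7 with IL-6 and 86.5 to 95.6 with Torin1 at 3 h. At 6 h it was 123 to 144 with IL-10 and 47.7 to 109 with TNF. A low sum was thus not particular to TNF, and the IL-10 sums were high at both hours. The libraries were made from poly(A) RNA, which these RNAs mostly lack, and the part of RNA selection in these values was not tested. RN7SL1, the signal recognition particle RNA, was at 34.5, 27.3 and 27.4 against 105, 65.7 and 44.9 FPKM, and its call (limma adjusted p 0.0479) was lost when any library other than IL-10 replicate 3 was left out (adjusted p 0.0689 to 0.197, and log2 -0.86 without IL-10 replicate 1). RN7SL3 (log2 -0.84) lost its call without TNF replicate 2 (log2 -0.67, 0.136) or 3 (-0.86, 0.0677) and without IL-10 replicate 1 (-0.74, 0.0997) or 2 (-0.77, 0.0958), all by limma. MIR4426 (log2 -0.62) lost it without TNF replicate 1 (-0.55, 0.0812) or 2 (-0.53, 0.0896) and without IL-10 replicate 2 (-0.52, 0.0916) or 3 (-0.58, 0.0769). With NC as the control all 3 lost their calls, RN7SL1 at -0.78 (limma adjusted p 0.154), RN7SL3 at -0.57 (0.113) and MIR4426 at -0.05 (0.874), and in the fit of the 6 libraries alone the adjusted p were 0.0539, 0.0516 and 0.0714.

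The small nucleolar RNAs SNORD77 and SNORD104 fell by 0.81 and 0.79, and ATP5ME, a subunit of ATP synthase, by 0.63. With NC as the control these became -0.18, 0.02 and 0.05, none past an adjusted p of 0.05 in limma. The strand used in counting is not given, so reads of genes that overlap others cannot be told apart.

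Of 37 listed genes of the TIMP, MMP, sheddase and EGF families, to which the study's genes of interest belong, 14 were tested. Of these, 2 rose and 2 fell, beside 10% and 6.06% of all genes tested, all by under 0.5 on the log2 scale. EGF reached at most 0.013 FPKM in any HepG2 library and was not tested. TIMP3, a matrix-bound inhibitor of metalloproteinases, was at 65.3, 63.98 and 65.98 FPKM with TNF and 52.9, 55.4 and 53.4 with IL-10 and rose by 0.27 (limma adjusted p 0.000279). TIMP1, the secreted inhibitor, was at 13.7, 13.5 and 14.4 against 15.5, 16.8 and 15.4: the TNF libraries were all lower, but the difference of -0.19 did not pass (limma adjusted p 0.143, 95% interval -0.36 to -0.01). TIMP2 differed by 0.13 (adjusted p 0.146 by limma), with overlap, and was higher with NC as the control (0.27, limma adjusted p 0.000889).

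The metalloproteinases MMP3, MMP14 and MMP15 differed by -0.13, 0.03 and -0.07 and did not pass, with limma adjusted p of 0.398, 0.783 and 0.383. Of the EGF receptor ligands, TGFA was at 5.74, 5.77 and 5.69 FPKM with TNF and 7.39, 6.73 and 6.68 with IL-10 and fell (log2 -0.24). HBEGF rose by 0.34 at 2.88, 2.70 and 2.76 against 1.89, 1.94 and 2.13 FPKM, but lost its call without TNF replicate 1 (adjusted p 0.0603 by limma) or IL-10 replicate 1 (0.0582) or 2 (0.0529). AREG, at 0.22 and adjusted p 0.102, passed when IL-10 replicate 2 was left out (log2 0.33, limma adjusted p 0.012) and with NC as the control (0.42, 0.00085). ERBB3 fell by 0.15 and ERBB2 differed by -0.02, against -0.20 with NC as the control (limma adjusted p 0.000243).

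The comparison group was itself changed against medium. IL-10 3 h differed from NC for 2149 genes (19.1%), 809 higher (7.17%) and 1340 lower (11.9%), and NC has no stated time. Several of the genes that rose with TNF were already above NC with IL-10. The log2 of IL-10 against NC was 1.39 for CXCL3, 1.19 for CCL20, 1.12 for CXCL1, 0.90 for NFKBIA, 0.79 for TNFAIP3 and 0.79 for CXCL8. For FSTL3, PLAU and SOD2 it was -0.23, -0.14 and 0.17.

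With NC as the control, TNF 3 h gave 3350 calls (29.7%), and the same libraries gave larger differences for CXCL3 (3.57), CCL20 (2.22), NFKBIA (2.46) and TNFAIP3 (2.53), and 1.99 for FSTL3. These comparisons share the TNF libraries, or the IL-10 libraries, and are given side by side only. HAMP differed from NC by -0.92 with TNF and 0.03 with IL-10, and CEBPA by -0.66 and -0.02.

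**Figure D4:**
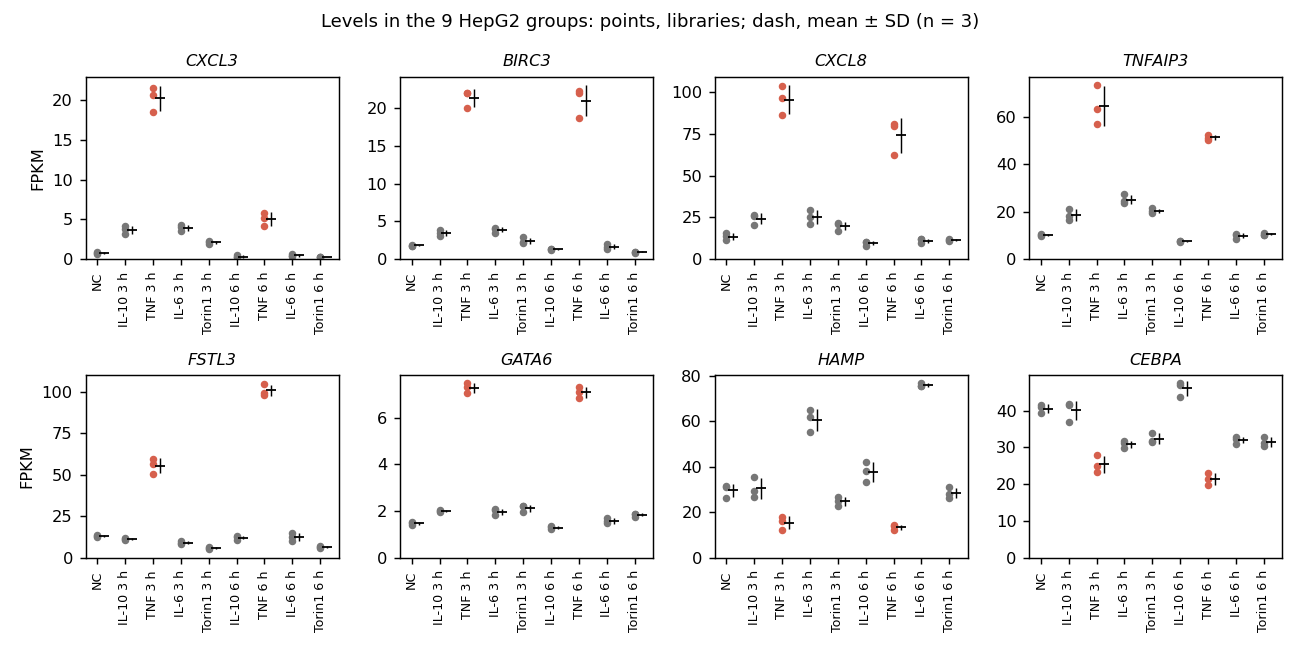
FPKM of 8 genes in the 27 HepG2 libraries, in 9 groups of 3, with TNF groups in red and a dash with bars for the mean and SD. CXCL3 averaged 0.790 ± 0.0982 FPKM in NC, 3.70 ± 0.530 with IL-10 at 3 h and 20.2 ± 1.56 with TNF at 3 h. HAMP was lowest in the TNF groups and highest in the IL-6 groups, with 60.7 ± 4.79 FPKM at 3 h.

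The markers were read across the 9 HepG2 groups as levels. CXCL8 averaged 13.6 ± 1.88 FPKM in NC, 25.1 ± 4.19 with IL-6 at 3 h, 19.8 ± 2.54 with Torin1 at 3 h and 95.3 ± 8.69 with TNF at 3 h (SD, n = 3). BIRC3 averaged 1.82 ± 0.0767, 3.90 ± 0.318, 2.43 ± 0.414 and 21.3 ± 1.18 in the same order. For both genes only the TNF groups stood clear of the other groups' libraries.

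The difference between 3 h and 6 h was tested as the TNF effect over IL-10 at 3 h minus that at 6 h. It passed for 466 of 11280 genes (4.13%), 228 above 0 (2.02%) and 238 below (2.11%), and the single comparison at 6 h called 3925 (34.8%). Several NF-kB targets had the larger effect at 6 h. BIRC3 went from 2.32 at 3 h to 3.25 at 6 h (difference -0.93, 95% interval -1.18 to -0.67, limma adjusted p 0.000161), CCL20 from 1.02 to 1.92 and NFKB2 from 0.95 to 1.84. CXCL8, NFKBIA and TNFAIP3 differed likewise.

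In FPKM, the mean level with TNF was lower at 6 h than at 3 h for CCL20, CXCL8, NFKBIA and TNFAIP3. It was close for BIRC3 and higher for NFKB2. These are means only, and the fit of TNF 3 h minus TNF 6 h is given below only as a count of genes. BIRC3 averaged 21.3 ± 1.18 with TNF at 3 h and 21.01 ± 2.00 at 6 h, and 3.47 ± 0.426 and 1.31 ± 0.0499 with IL-10 (SD, n = 3). CCL20 averaged 2644 ± 126 and 1542 ± 175 with TNF, and 1303 ± 108 and 404 ± 10.2 with IL-10. Every IL-10 library at 6 h was below every one at 3 h for BIRC3. FSTL3, by contrast, averaged 101 ± 3.51 with TNF at 6 h and 12.03 ± 1.08 with IL-10, against 55.5 ± 4.42 with TNF at 3 h (difference of effects -0.75, limma adjusted p 0.00287). CXCL3 averaged 20.2 ± 1.56 with TNF and 3.70 ± 0.530 with IL-10 at 3 h, and 5.07 ± 0.878 and 0.342 ± 0.136 at 6 h. On log2(FPKM + 1), a scale that compresses a level below the added 1 FPKM such as its IL-10 level at 6 h, no difference between hours was detected (limma adjusted p 0.991, 95% interval -0.30 to 0.31).

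Some genes that fell had the deeper fall at 6 h. CEBPA went from -0.64 to -1.08 (difference 0.44, limma adjusted p 0.00445), MIXL1 from -1.09 to -1.69 and APOA5, an apolipoprotein of triglyceride handling, from -0.37 to -0.79. HMOX1, the heme oxygenase, was -0.15 at 3 h (adjusted p 0.285, limma) and -0.79 at 6 h. For HAMP the difference of 0.49 did not pass (limma adjusted p 0.115). PCK1, the gluconeogenic enzyme, averaged under 1 FPKM in all 4 groups and moved from 0.34 to -0.09.

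The same contrast in HCT116 called 4156 of 11395 genes (36.5%), and the difference between the lines passed for 2350 of 9683 genes tested in both (24.3%), 1581 above 0 (16.3%) and 769 below (7.94%). Of 15 NF-kB list genes, 12 had a smaller effect in HepG2 and 1 a larger one. BIRC3 averaged 86.4 ± 4.99 FPKM with TNF and 0.700 ± 0.226 with IL-10 in HCT116 (SD, n = 3), an effect of 5.69 against 2.32 in HepG2. The difference was -3.37 (95% interval -3.61 to -3.13, limma adjusted p 1.01e-23). CXCL8 averaged 50.8 ± 2.59 and 0.393 ± 0.103 FPKM there, so its IL-10 level was far below the 24.1 ± 3.36 of HepG2.

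NFKBIA, ICAM1 and CCL20 also had the smaller effect in HepG2, by 2.51, 2.22 and 2.14, and all 3 had higher IL-10 levels there: ICAM1 averaged 55.5 ± 3.13 FPKM in HepG2 and 1.30 ± 0.238 in HCT116. PLAUR, the urokinase receptor, rose in HCT116 (2.02) and did not pass in HepG2 (-0.11, limma adjusted p 0.464).

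FSTL3 went the other way. It rose by 2.22 in HepG2 and was 6.84 ± 0.495 FPKM with TNF and 6.24 ± 0.247 with IL-10 in HCT116, a difference between lines of 2.11 (95% interval 1.88 to 2.34). SGK1 differed by 1.23, and SOD2 by 0.71. In HCT116 SGK1 averaged 0.632 ± 0.0338 FPKM with TNF and 0.515 ± 0.0251 with IL-10, levels below the added 1 FPKM that the scale compresses. The BMP targets ID2 and ID1 and the phosphatase gene DUSP6 fell in HCT116 (log2 -1.67, -1.29 and -1.11), and the effects in HepG2 were -0.06 (limma adjusted p 0.437), -0.30 and -0.22. With NC as the control the HepG2 effects were 0.25 for ID2 (limma adjusted p 0.000193) and 0.26 for DUSP6 (0.000177), both higher with TNF, and -0.04 for ID1 (0.699). GATA6, HAMP and MIXL1 were under the filter in HCT116 and could not be compared.

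**Figure D5:**
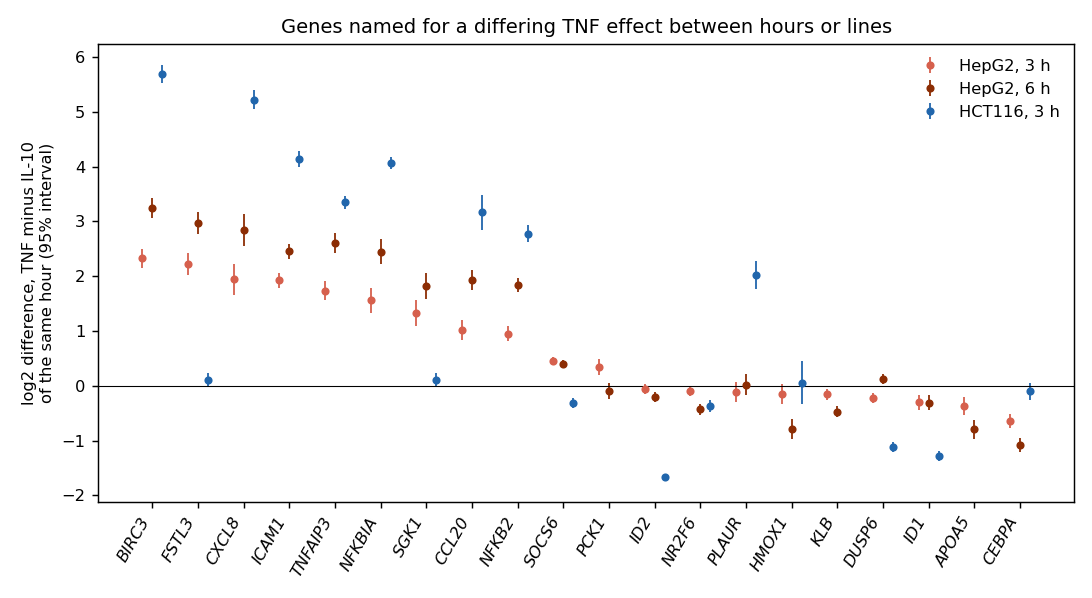
Log2 difference of TNF minus IL-10 of the same hour with 95% intervals for HepG2 at 3 h (red), HepG2 at 6 h (brown) and HCT116 at 3 h (blue), for the genes named for a difference between hours or lines. A gene under the filter in HCT116 has no blue point. BIRC3 stands at 2.32, 3.25 and 5.69, and FSTL3 at 2.22, 2.97 and 0.11.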

How the data were processed

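Poly(A) RNA was sequenced on an MGI platform, per the labels' protocols. The submitters' processing notes name FastQC, HISAT2, GRCh38, DESeq2 and StringTie without saying what each did. The authors deposited FPKM values for 50037 entries in 1 table; its 48 comparison columns were not used. Whole reads were recovered from the FPKM steps for 100% of 36451 genes above 0 (tolerance 0.01 read; 30359 of them above 0 in at least 5 libraries), and voom on those reads called 1887 genes. FTH1 and CRP are listed at 0 throughout, so a 0 can be a failed estimate. Whether values near 0, such as those of APOB, IL10RB and HLA-C, are failed estimates too was not tested. Genes with a second entry are not named.

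All 27 HepG2 libraries were fitted in R 4.3.3 with limma 3.58.1 (moderated variances that follow expression level), 1 mean per group on log2(FPKM + 1). A gene was tested if 3 or more of these libraries reached 1 FPKM. This scale understates changes of low genes. Calls are two-sided at a Benjamini-Hochberg adjusted p under 0.05. Differences between hours and lines are differences of contrasts, the lines in a fit of all 54 libraries. On simulated data (11195 genes, 200 changed), 80%, 88%, 96% and 98% of genes changed 1.25, 1.5, 2 and 4-fold were recovered, and 6.22% of calls were unchanged genes. No 2 replicates were duplicates (chi-square over its degrees of freedom 9.79 to 19.9).

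Named genes are the 12 largest called rises and 12 falls with a mean of at least 5 FPKM and no overlap, the 5 largest called members of each of 28 lists, the markers, TIMP, MMP, EGF and NF-kB genes, and 6 genes each way for each difference; others were chosen after their values were seen. The comparison, lists and members were chosen with earlier results of these data known, and mitochondrial symbols were then matched to the table's names. Promoters and coordinates are from RefSeq GRCh38.p14. Alternatives covered the pseudocount, filter, scaling, replicate block, libraries fitted, control and left-out libraries; total-read scaling, voom and a fit without second-entry genes were added after seeing the data.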

Additional observations from a re-analysis of the deposited data

Results flagged for a closer look

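The test of the difference between hours passed for 466 genes, in which the TNF effect over IL-10 in HepG2 was not the same at 3 h and 6 h. Among the list genes with the largest differences, the 3 h effect minus the 6 h effect was -0.93 for BIRC3, -0.90 for CCL20, -0.90 for CXCL8, -0.89 for NFKB2, -0.89 for NFKBIA and -0.87 for TNFAIP3, on the log2 scale. In the other direction it was 0.64 for HMOX1, 0.44 for CEBPA, 0.43 for PCK1, 0.42 for APOA5, 0.33 for NR2F6 and 0.32 for KLB.

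The test of the difference between the lines passed for 2350 genes at 3 h. The HepG2 effect minus the HCT116 effect was -3.37 for BIRC3, -3.27 for CXCL8, -2.51 for NFKBIA, -2.22 for ICAM1, -2.14 for CCL20 and -2.13 for PLAUR. It was 2.11 for FSTL3, 1.61 for ID2, 1.23 for SGK1, 0.99 for ID1, 0.89 for DUSP6 and 0.77 for SOCS6.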

How the results depend on the processing

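TNF 3 h against IL-10 3 h called 822 genes when only these 6 libraries were fitted (767 of them among the 1817) and 3350 with NC as the control. Leaving out 1 library gave 1266 to 1623 calls there, 3150 to 3540 for TNF at 6 h, 3193 to 3964 in HCT116 and 1780 to 2667 for the difference between the lines. The difference between hours called 303 genes without a filter, 260 with only the groups compared and 2867 with NC as the control, which is TNF 3 h minus TNF 6 h. Leaving out 1 library gave 280 to 510 calls for it, 280 without TNF 6 h replicate 1 and 281 without IL-10 6 h replicate 3. The causes were not tested.

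Same-numbered TNF and IL-10 libraries showed no shared deviation (correlations -0.0232, 0.043 and -0.0547). So few correlations cannot exclude a pairing by number. The replicate block gave 1906 calls for TNF 3 h, 4027 at 6 h, 498 for the difference between hours, 2471 between the lines and 4238 in HCT116.

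With NC as the control the sign turned for BCYRN1 (0.31), SNORD104 (0.0241), ATP5ME (0.0459), SERPINA7 (0.0079), DUSP6 (0.26), SPRY2 (0.0129), CCND1 (0.16), TIMP1 (0.0074), MMP14 (-0.0218), MMP15 (0.0021), CHUK (-0.0276), IKBKB (-0.0050), TANK (0.0777) and ID2 (0.25), log2 throughout; DUSP6, CCND1 and ID2 passed in this opposite direction. With 1 library left out, the sign turned for TANK (range -0.0225 to 0.039; positive without TNF replicate 3 or IL-10 replicate 1), MMP14 (-0.0047 to 0.0686) and ID2 (-0.0930 to 0.00019), both without IL-10 replicate 1, and ERBB2 (-0.0361 to 0.0021), without IL-10 replicate 3. Of 134 named genes, 88 kept their direction and call in every alternative run.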
